A study of Rattus norvegicus with 10 samples.

Results

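The miR-181 family was followed in 10 small RNA libraries of rat tissue. Its members were chosen by name, as every mature miRNA of the count files whose name begins with rno-miR-181, and 10 of the 723 mature miRNAs in the files have such a name. No measured difference entered this rule. The only measured value it used was the read count, of which the largest over the precursors of a miRNA was kept, and the family itself was picked with results of these data known. Of the 10 members, 8 reached at least 1 cpm (a count scaled to the size of its library) in at least 5 libraries and were tested among 359 miRNAs.

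The animals were female Wistar rats in which collagen-induced arthritis (CIA) was raised with bovine type II collagen in adjuvant, so that all 5 groups carry the induced disease and no healthy tissue is among them. CIA_B was sampled before any therapy, MS_E and PLA_E at 1 h and MS_A and PLA_A at 34 days of mechanical stimulation (MS) or placebo (PLA), with 2 libraries per group. MS is the insertion and twirling of a thin needle, which the labels call acupuncture (AP), and PLA is a peritoneal injection of saline, so the arms differ both in the agent and in the place where it was given. The tissue is described as subcutaneous tissue around the stimulated points including subcutaneous muscle, the labels name muscle, and the text of the series also mentions blood. Nothing in the labels ties a library to 1 animal or to several, so the p-values measure the spread between libraries, which may be technical.

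The libraries held between 1513799 and 8926170 miRNA reads, the first CIA_B library being the smallest. The skeletal muscle miRNA miR-1-3p was at 80400 to 122962 cpm in 1 library of every group (CIA_B 1, MS_E 2, PLA_E 1, MS_A 2, PLA_A 1) and at 10115 to 15564 cpm in the other, a split that the labels do not give. miR-206-3p and miR-133b-3p were higher in the same library of each group as miR-1-3p. miR-133a-3p was so in CIA_B, MS_E and MS_A only. In PLA_E it was at 70505 cpm in the library with high miR-1-3p and 118939 cpm in the other. In PLA_A it was at 89171 and 139360 cpm, so the 4 markers did not agree on the split. All 4 skeletal muscle markers were detected and tested, and none passed the thresholds given below in any comparison. Fewer cells of a type and less RNA per cell cannot be told apart in such bulk tissue.

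miRNAs are short RNAs cut from both arms of a hairpin precursor, and they repress messages that pair with their seed, the bases 2 to 8 counted from the 5′ end. The miR-181 family is conserved among vertebrates, is known from lymphocytes, where miR-181a tunes the sensitivity of the T cell receptor, and from differentiating muscle, where it acts on the homeobox factor Hox-A11. It is encoded at 3 loci, each with a pair of hairpins: miR-181a and miR-181b are each made from a pair of loci, and miR-181c and miR-181d from a locus of their own.

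The mature sequences show how close the members are, and they are printed from RefSeq (GRCr8) with the seed in capitals. RefSeq gave a mature sequence for 9 of the 10 members, and miR-181b-2-3p is named only. The 4 main arms, which all come from the 5′ side of their hairpins, have the same seed:
rno-miR-181a-5p: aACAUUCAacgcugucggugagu
rno-miR-181b-5p: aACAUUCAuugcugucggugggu
rno-miR-181c-5p: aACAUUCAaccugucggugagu
rno-miR-181d-5p: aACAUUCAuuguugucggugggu

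The other arms, from the 3′ side, have different seeds, and miR-181a-1-3p and miR-181c-3p share theirs:
rno-miR-181a-1-3p: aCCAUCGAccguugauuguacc
rno-miR-181c-3p: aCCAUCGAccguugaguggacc
rno-miR-181a-2-3p: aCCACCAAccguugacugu
rno-miR-181b-1-3p: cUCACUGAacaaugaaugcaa
rno-miR-181d-3p: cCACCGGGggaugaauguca

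Positions of the differences are counted from 1 at the 5′ end, with the base of the first-named miRNA before the position and that of the other after it. miR-181b-5p and miR-181d-5p differ at a single position, C12U. miR-181a-5p and miR-181b-5p differ at 3 positions, A9U, C10U and A21G. miR-181a-5p and miR-181c-5p are 1 edit apart, since miR-181c-5p is 22 bases long and miR-181a-5p 23. miR-181a-1-3p and miR-181c-3p differ by U16G and U19G. The 9 sequences hold 5 different seeds. Members this alike can receive reads of each other through sequencing errors or trimmed ends, and the extent of this was not tested.

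On GRCr8, which is not the build the authors aligned to, Mir181a-1 and Mir181b1 lie on chromosome 13 with 61 bases between them. Mir181a2 and Mir181b2 lie on chromosome 3 with 986 bases between them, and Mir181c and Mir181d on chromosome 19 with 77. The Mir181c hairpin (chr19:40888291-40888396, plus strand) and the Mir181d hairpin (chr19:40888474-40888556, plus strand) are shown because the results turn on them, with their mature arms in capitals:
Mir181c: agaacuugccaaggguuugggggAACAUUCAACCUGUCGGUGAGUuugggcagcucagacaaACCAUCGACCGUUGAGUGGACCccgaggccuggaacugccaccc
Mir181d: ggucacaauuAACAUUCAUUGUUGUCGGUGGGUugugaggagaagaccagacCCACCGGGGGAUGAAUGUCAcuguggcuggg

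The family took 1.01 to 1.97% of the miRNA reads of a library. Levels are given below as cpm after scaling by the TMM factors of edgeR, and they are not divided by length, since mature miRNAs are of like length and each read covers a whole molecule. How readily a miRNA is captured during library preparation depends on its sequence, so the levels of different members are less comparable than those of a single member between libraries.

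miR-181a-5p was by far the most abundant member and ranked between 10 and 16 among all miRNAs of a library. It was read at 11228 and 15815 cpm in CIA_B, 16386 and 8754 cpm in MS_E, 8423 and 16917 cpm in PLA_E, 14443 and 10255 cpm in MS_A, and 13211 and 13483 cpm in PLA_A. All 5 groups overlapped, and the group means lay between 12349 ± 2961 cpm in MS_A and 13522 ± 3243 cpm in CIA_B (SD, n = 2). The libraries of a group differed by up to 2.01-fold, in PLA_E, more than any group means did.

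miR-181b-5p, the next in level, was read at 1082 and 1342 cpm in CIA_B, 825 and 749 cpm in MS_E, 723 and 1403 cpm in PLA_E, 1115 and 1036 cpm in MS_A, and 896 and 1210 cpm in PLA_A. The MS_E libraries were below both CIA_B libraries and below both MS_A and both PLA_A libraries. They lay within the range of the PLA_E libraries. With library size alone as the scaling the MS_E libraries, at 599 and 932 cpm, overlapped with CIA_B (826 and 1430 cpm) and were below both PLA_E libraries (1022 and 1365 cpm).

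The main arm of Mir181c was lower again in level. miR-181c-5p was read at 626 and 911 cpm in CIA_B, 620 and 348 cpm in MS_E, 437 and 745 cpm in PLA_E, 554 and 417 cpm in MS_A, and 559 and 502 cpm in PLA_A. The CIA_B libraries were above both libraries of MS_E, MS_A and PLA_A, in the case of MS_E by the small step from 626 to 620 cpm, and overlapped with PLA_E. The other 4 groups overlapped with each other.

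miR-181d-5p was the scarcest main arm and the member whose level varied most. It was read at 139 and 175 cpm in CIA_B, 67.2 and 39.0 cpm in MS_E, 73.0 and 119 cpm in PLA_E, 109 and 70.1 cpm in MS_A, and 81.2 and 71.5 cpm in PLA_A. The CIA_B libraries were the highest of all 10 and the MS_E libraries the lowest. With library size alone as the scaling the MS_E libraries were still the lowest, at 48.7 and 48.6 cpm, while CIA_B, at 106 and 187 cpm, overlapped with PLA_E (103 and 116 cpm) and PLA_A (107 and 68.5 cpm). The group means fell in the order CIA_B (157 ± 25.3 cpm), PLA_E (96.2 ± 32.8), MS_A (89.6 ± 27.6), PLA_A (76.3 ± 6.89) and MS_E (53.1 ± 19.9, all SD, n = 2). The 3 groups in the middle of this order overlapped, so that their order is not beyond the spread between libraries.

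Each 3p arm was scarcer than the main arm of its miRNA, which for miR-181a and miR-181b can come from either of their hairpins. The 3p arms tell the loci of miR-181a apart. miR-181a-1-3p, from chromosome 13, was read at 26.8 and 67.5 cpm in CIA_B, 50.9 and 33.4 cpm in MS_E, 23.5 and 65.9 cpm in PLA_E, 49.1 and 29.6 cpm in MS_A, and 48.1 and 60.7 cpm in PLA_A. miR-181a-2-3p, from chromosome 3, was read at 77.0 and 134 cpm in CIA_B, 78.9 and 70.6 cpm in MS_E, 52.1 and 157 cpm in PLA_E, 111 and 82.5 cpm in MS_A, and 51.8 and 99.7 cpm in PLA_A. Both arms overlapped between CIA_B and every other group.

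miR-181c-3p was read at 27.7 and 35.3 cpm in CIA_B, 15.1 and 11.1 cpm in MS_E, 20.5 and 29.5 cpm in PLA_E, 20.9 and 20.1 cpm in MS_A, and 23.9 and 17.7 cpm in PLA_A. As with miR-181d-5p, the MS_E libraries were the lowest of the 10. In counts these are 32 and 240 reads in CIA_B against 98 and 71 reads in MS_E, so the first CIA_B value rests on few reads.

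The remaining 3 members were near the limit of detection. miR-181b-2-3p lay between 2.93 and 11.3 cpm, from 6 to 54 reads in a library. miR-181b-1-3p had 0 to 11 reads in a library and 51 in all, and over 3 reads in 6 of the 10 libraries. Its 0 reads in the first CIA_B library allow a level of up to 2.60 cpm, the equivalent of 3 reads, which is above its level in every other library. miR-181d-3p had 1 read in all 10 libraries together, in MS_E. Both were left out of the tests by the filter on low values.

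**Figure D1:**
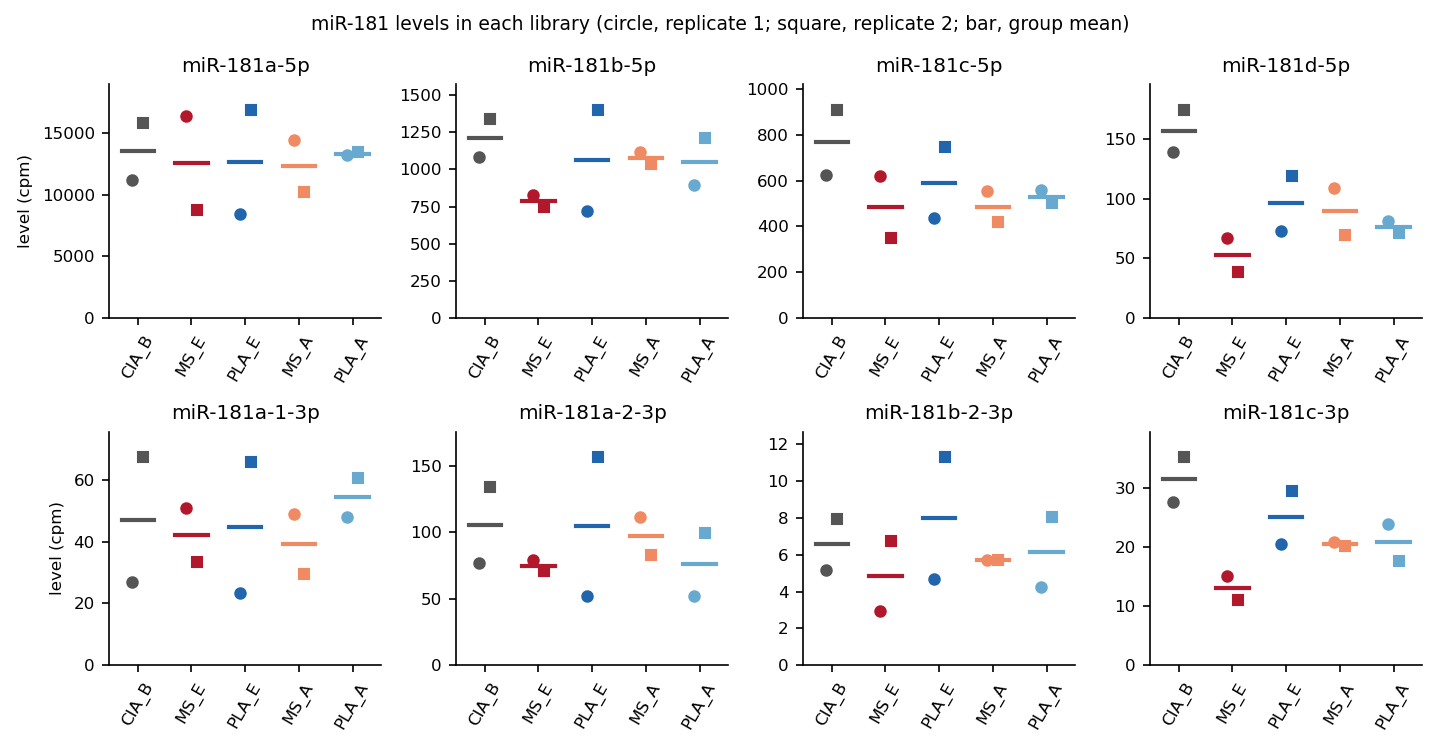
Level of the 8 tested miR-181 members in each library, in cpm (vertical axes from 0, one panel per member), by group (horizontal axes); circles are replicate 1, squares replicate 2 and bars the mean of the 2 libraries. miR-181d-5p and miR-181c-3p are highest in CIA_B, at means of 157 and 31.5 cpm, and lowest in MS_E, at 53.1 and 13.1 cpm, while the miR-181a-5p groups overlap.

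The comparison of MS_E with CIA_B asks what differed 1 h after stimulation. A miRNA passed at more than 2-fold change with a p under 0.05 before adjustment, here in edgeR's quasi-likelihood test on all 10 libraries. So judged, 2 of the 8 tested members were lower in MS_E, and both come from the c/d locus. Of all 359 miRNAs tested, 6.41% passed in this comparison, 5.29% higher and 1.11% lower. After Benjamini-Hochberg adjustment of the edgeR p-values 0 miRNAs were under 0.05, against 23 before adjustment. DESeq2 gave 8 under 0.05 after adjustment, none of them a member, and limma-voom gave 0.

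The larger of these differences was that of miR-181d-5p, at -1.56 on the log2 scale (standard error 0.48) or 2.95-fold lower in MS_E, with an edgeR p of 0.0101 and a Benjamini-Hochberg adjusted p of 0.373. It was lower in both MS_E libraries. Over the alternatives other than leaving out single libraries, its adjusted p ran from 0.0999 to 0.764. Without the second MS_E library the difference was -1.22 on the log2 scale and no longer passed, with an edgeR p of 0.0674 and a Benjamini-Hochberg adjusted p of 0.654. Here and wherever 1 library is left out, its group keeps a single library, which is assumed to vary like those of the other groups.

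miR-181c-3p was at -1.25 on the log2 scale (standard error 0.46) or 2.37-fold lower in MS_E, with an edgeR p of 0.022 and a Benjamini-Hochberg adjusted p of 0.581. Its p was above 0.05 without the second MS_E library (log2 fold change -1.05), without the second CIA_B library (-1.06), with library size alone as the scaling (-1.23) and with only the 4 libraries compared (-1.22).

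The other 6 tested members did not pass. miR-181c-5p, cut from the same hairpin as miR-181c-3p, was at -0.67 on the log2 scale (standard error 0.46), from -1.21 without the first MS_E library to -0.31 without the second. miR-181b-5p, with the seed of miR-181d-5p, was at -0.62 (0.43). miR-181a-5p was at -0.11 (0.51). The log2 fold change was -0.17 for miR-181a-1-3p, -0.50 for miR-181a-2-3p and -0.45 for miR-181b-2-3p. Adjusted p-values of these 6 were between 0.928 and 0.994 (edgeR, Benjamini-Hochberg). All 8 log2 fold changes were below 0 with a median of -0.56, beside a median of 0.06 and 45.1% below 0 over all miRNAs tested. The members share seeds, loci and libraries and are not independent of each other.

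Markers of other cell types moved in the same comparison. The slow-twitch fibre miRNAs, which are encoded in myosin genes, were both lower in MS_E, miR-499-5p by a log2 fold change of -2.97 and miR-208b-3p by -3.35. Their summed level was 826 and 585 cpm in CIA_B, 56.5 and 94.4 in MS_E, and 113 to 1025 cpm in the other libraries. Of the epithelial miRNAs, 4 of 6 tested were higher in MS_E (miR-141-3p, miR-200a-3p, miR-200b-3p and miR-200c-3p), and the summed level of the list was 447 cpm in the first MS_E library and 33.7 to 135 cpm in the other 9. Of the leukocyte miRNAs, 1 of 5 tested was higher, the myeloid miR-223-3p, and of the erythroid ones 1 of 3, miR-451-5p. The summed level of the leukocyte list was 3401 and 3054 cpm in MS_E against 1648 and 1638 in CIA_B, and that of the erythroid list 88.6 and 24.4 cpm against 24.2 and 17.5. None of the 2 endothelial miRNAs passed. The part of these markers in the lower miR-181d-5p and miR-181c-3p was not tested.

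**Figure D2:**
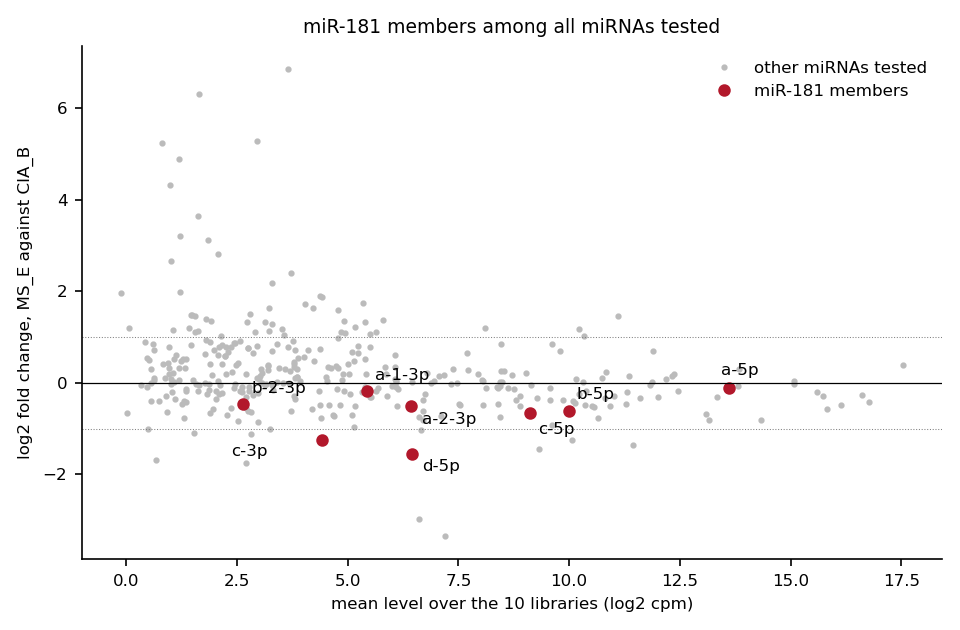
Log2 fold change of MS_E against CIA_B (vertical axis) against mean level over the 10 libraries in log2 cpm (horizontal axis) for the 359 miRNAs tested; red points are the 8 miR-181 members, named without their prefix, and dotted lines mark 2-fold change. All red points lie below 0, and those of miR-181d-5p (-1.56) and miR-181c-3p (-1.25) lie below the lower line.

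At 1 h of placebo no member passed against CIA_B, where 0.557% of all miRNAs did. On the log2 scale the difference was -0.71 (standard error 0.48) for miR-181d-5p, -0.38 (0.46) for miR-181c-5p, -0.34 (0.45) for miR-181c-3p, -0.19 (0.42) for miR-181b-5p and -0.09 (0.51) for miR-181a-5p. Their adjusted p was 0.994 each (edgeR, Benjamini-Hochberg). The median of the 8 members was -0.14, beside 0.07 over all. With single libraries left out, miR-181d-5p ran from -1.09 to -0.40, miR-181c-5p from -0.81 to -0.04 and miR-181c-3p from -0.60 to -0.10. With library size alone these 3 were at -0.42, -0.11 and -0.03.

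After 34 days of stimulation again no member passed against CIA_B, where 1.11% of all miRNAs did. miR-181d-5p was at -0.81 (standard error 0.48), miR-181c-5p at -0.66 (0.46) and miR-181c-3p at -0.62 (0.45) on the log2 scale. miR-181b-5p and miR-181a-5p were at -0.17 and -0.13. The median of the members was -0.25, beside 0.10 over all, and the adjusted p of every member was 0.994 (edgeR, Benjamini-Hochberg). Of the leukocyte miRNAs 1 of 5 tested was higher, miR-223-3p at 1.45 on the log2 scale, and the summed level of the list was 2434 and 2619 cpm in MS_A against 1648 and 1638 cpm in CIA_B. Its part in the values of the members was not tested.

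After 34 days of placebo no member passed either, where 6.96% of all miRNAs did. miR-181d-5p came close, at -1.04 on the log2 scale (standard error 0.48) or 2.06-fold lower, with an edgeR p of 0.0568 and a Benjamini-Hochberg adjusted p of 0.543. It passed in DESeq2, at -1.14 with a p of 0.0367 and an adjusted p of 0.462. It also passed in edgeR with DESeq2's size factors (-1.14) and with a mean of at least 100 counts (-1.15), and not in limma-voom. It was at -0.74 and did not pass with library size alone. miR-181c-3p was at -0.60 (0.46), miR-181c-5p at -0.54 (0.46), miR-181b-5p at -0.20 (0.42) and miR-181a-5p at -0.02 (0.51). The median of the members was -0.34, beside 0.11 over all. With single libraries left out, miR-181c-5p ran from -0.88 to -0.24 and miR-181c-3p from -0.86 to -0.41. With library size alone they were at -0.25 and -0.29. The leukocyte list moved most here, with 3 of 5 tested higher (miR-142-3p, miR-142-5p and miR-150-5p) and a summed level of 14583 cpm in the first PLA_A library, beside 1638 to 3401 cpm in the other 9. The erythroid miR-144-3p and miR-144-5p were also higher in PLA_A, and their part and that of the leukocyte list in the values of the members was not tested.

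The comparisons above share the 2 CIA_B libraries, so their values are set side by side and not counted as separate evidence. miR-181d-5p was the lowest of the main arms in log2 fold change in each of them, and under the TMM scaling both libraries of each of the 4 groups were below both CIA_B libraries. Both libraries were below both CIA_B libraries for 4 of the 8 members in MS_E (miR-181b-5p, miR-181c-5p, miR-181c-3p and miR-181d-5p), where 13.1% of all miRNAs tested were. The number was 1 in PLA_E, miR-181d-5p, against 9.47% of all. It was 3 in MS_A, against 10.9%, and 3 in PLA_A, against 15.6%, both times miR-181c-5p, miR-181c-3p and miR-181d-5p. Of the tested members 0 were above both CIA_B libraries in any group, where 18.4% of all miRNAs tested were so in MS_E, 11.7% in PLA_E, 16.2% in MS_A and 20.9% in PLA_A. These counts rest on the scaling. With library size alone, both libraries were below both CIA_B libraries for 3 members in MS_E (miR-181c-5p, miR-181c-3p and miR-181d-5p, against 7.80% of all), 0 in PLA_E (5.01%), 1 in MS_A (miR-181d-5p, 9.19%) and 0 in PLA_A (10.9%).

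**Figure D3:**
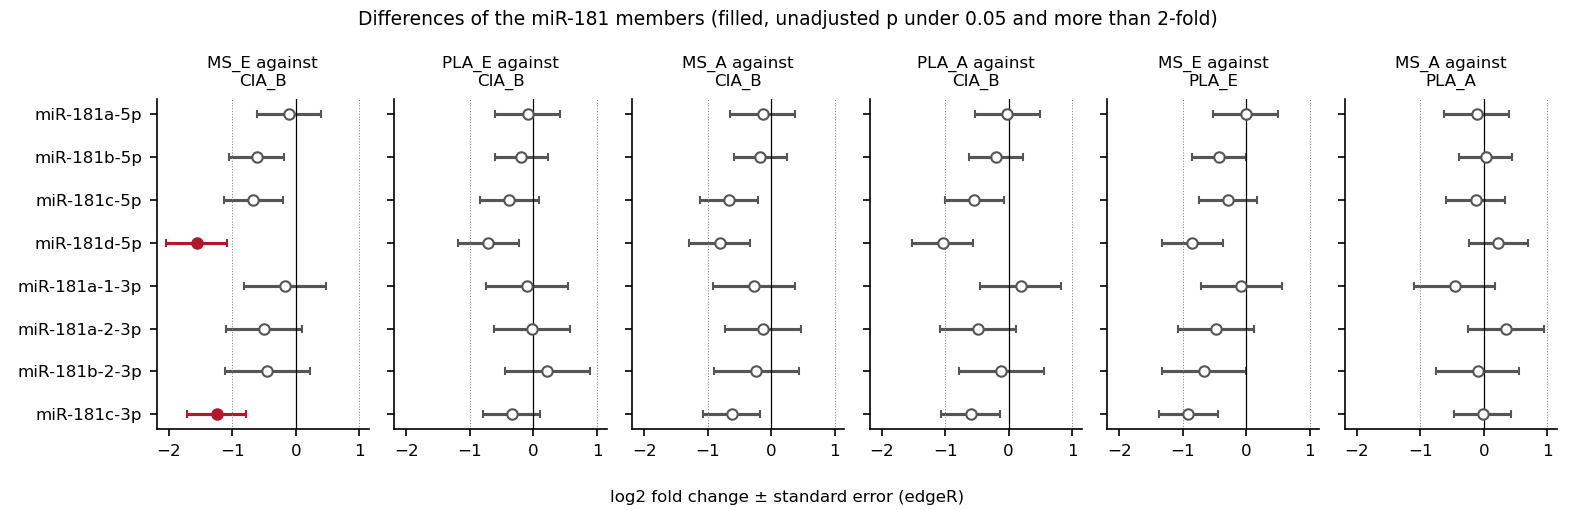
Log2 fold change of the 8 tested members (points, edgeR) with its standard error (bars) in 6 comparisons, the first 4 of which share the CIA_B libraries; dotted lines mark 2-fold change and filled points passed p under 0.05 with more than 2-fold. Filled points are miR-181d-5p and miR-181c-3p in MS_E against CIA_B alone, and miR-181a-5p lies between -0.13 and -0.01 in every panel.

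Stimulation and placebo were also compared at the same time. At 1 h no member passed, where 3.9% of all miRNAs did. miR-181c-3p was at -0.91 on the log2 scale (standard error 0.46) and miR-181d-5p at -0.85 (0.48). Their edgeR p was 0.0715 and 0.105, with a Benjamini-Hochberg adjusted p of 0.832 each. The MS_E libraries were nevertheless both below both PLA_E libraries for miR-181d-5p, at 67.2 and 39.0 against 73.0 and 119 cpm, and for miR-181c-3p, at 15.1 and 11.1 against 20.5 and 29.5 cpm. That holds for 11.7% of all miRNAs tested. Under library size alone, 5 of the 8 members (the 4 main arms and miR-181c-3p) were below both PLA_E libraries, against 20.6% of all. With library size alone as the scaling, and without the first MS_E library, miR-181d-5p passed, at -1.17 and -1.35. Without the second MS_E library it was at -0.52 and without the second PLA_E library at -0.43, and miR-181c-3p ranged from -1.20 to -0.62 with single libraries left out. Of the epithelial miRNAs 2 of 6 tested were higher in MS_E than in PLA_E, miR-141-3p at 4.62 and miR-200b-3p at 3.30, and their part in the values of the members was not tested.

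At 34 days no member passed, where 1.95% of all miRNAs did, and the log2 fold changes of MS_A against PLA_A lay between -0.46 for miR-181a-1-3p and 0.35 for miR-181a-2-3p. miR-181d-5p was at 0.23 (standard error 0.47) and miR-181c-3p at -0.02 (0.45), and both change sign with the scaling. The change from 1 h to 34 days was then tested between the arms. No member passed this interaction either, where 3.34% of all miRNAs did. It was 1.08 for miR-181d-5p (standard error 0.67) and 0.89 for miR-181c-3p (0.64), with an edgeR p of 0.139 and 0.189 and a Benjamini-Hochberg adjusted p of 0.993 each, so the response of the c/d locus was not shown to differ between the arms. Markers passed in these comparisons, the leukocyte miR-142-3p (-4.25) and miR-142-5p (-3.71) in MS_A against PLA_A, and miR-142-5p (-3.58) and the epithelial miR-141-3p (-6.31) in the interaction. miR-141-3p was at 220 cpm in the first MS_E library and at 1.73 to 26.65 cpm in the other libraries. The part of these markers in the values of the members was not tested.

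Shares within the family do not depend on the scaling of the libraries. They are given with exact 95% binomial intervals of the read counts, which leave out the spread between libraries. PCR copies of a molecule can be read more than once, which makes these intervals too narrow. miR-181d-5p and miR-181b-5p, which differ by C12U, come from different loci. miR-181d-5p took 11.4% (9.80 to 13.2%) and 11.5% (10.9 to 12.2%) of the reads of the pair in CIA_B. It took 7.53% (6.86 to 8.24%) and 4.95% (4.37 to 5.59%) in MS_E, and the PLA_E libraries had 9.18% and 7.85%. At 34 days its share was 8.91% and 6.33% after stimulation and 8.31% and 5.58% after placebo. The CIA_B libraries were the highest of the 10 and differed from each other by less than counting error. Of their intervals that of the first library reached into that of the first PLA_E library, and no other overlapped with a later library. The intervals of both MS_E libraries did not overlap each other either, so gaps between intervals do not by themselves set groups apart.

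miR-181c-5p and miR-181a-5p make the other pair across loci. miR-181c-5p took 5.28% (4.91 to 5.67%) and 5.44% (5.31 to 5.58%) of its reads in CIA_B. At 1 h its share was 3.64% and 3.83% after stimulation and 4.93% and 4.22% after placebo, and at 34 days 3.70% and 3.91% after stimulation and 4.06% and 3.59% after placebo. Here too the CIA_B libraries were the highest, and the interval of the first PLA_E library (4.77 to 5.10%) overlapped with that of the first CIA_B library. Together miR-181c-5p and miR-181d-5p were 3.75 to 5.95% of the reads of the 4 main arms, with a median of 4.24%. With reads counted at every precursor, which counts miR-181a-5p and miR-181b-5p at both loci, that median was 2.17%.

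Within the c/d locus itself, miR-181d-5p took 18.2% (15.7 to 20.9%) and 16.1% (15.3 to 17.0%) of the reads of both main arms in CIA_B. In MS_E it took 9.78% (8.92 to 10.7%) and 10.1% (8.92 to 11.3%), the lowest of the 10 libraries. Its share was 14.3% and 13.8% at 1 h of placebo, 16.5% and 14.4% at 34 days of stimulation, and 12.7% and 12.5% at 34 days of placebo. In the same MS_E libraries miR-1-3p was at 11905 and 100664 cpm, the summed epithelial markers at 447 and 119 cpm and the summed slow-twitch markers at 56.5 and 94.4 cpm. The part of these markers in the share was not tested.

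**Figure D4:**
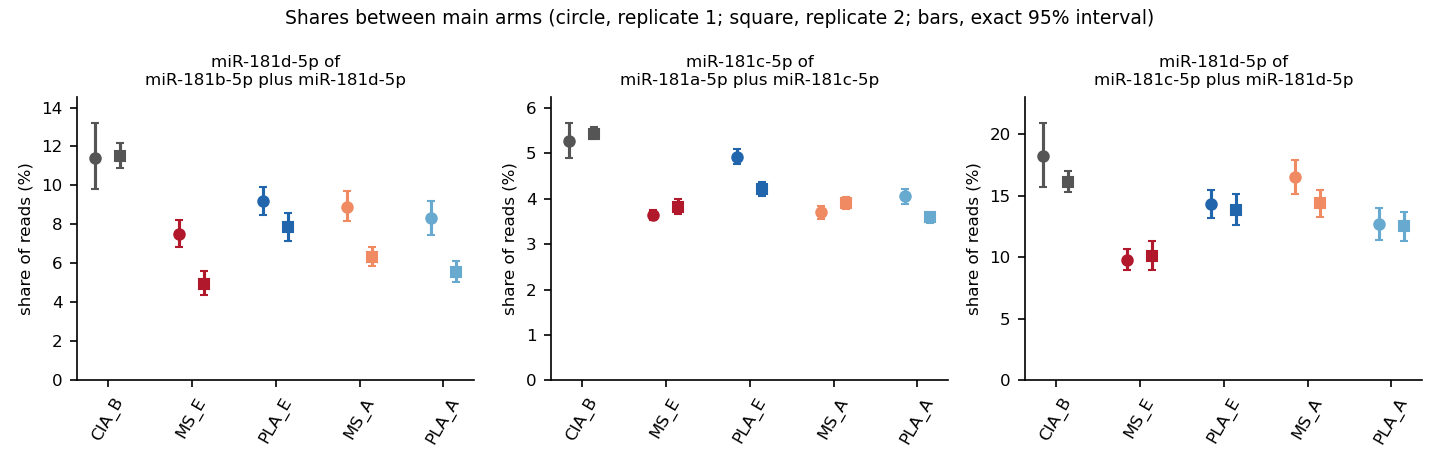
Share of reads (percent, vertical axes from 0) that a main arm took of a pair of main arms, by library and group; circles are replicate 1, squares replicate 2 and bars exact 95% binomial intervals. The CIA_B libraries are the highest for miR-181d-5p of the b/d pair (11.4 and 11.5%) and for miR-181c-5p of the a/c pair, and the MS_E libraries are the lowest for miR-181d-5p of the c/d pair (9.78 and 10.1%).

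The 3p arms give the balance within a hairpin and between the miR-181a loci. miR-181c-3p was 2.38 to 4.60% of the reads of both arms of Mir181c, lowest in MS_E at 2.38% and 3.08%, and 4.24% and 3.73% in CIA_B. The interval of the second MS_E library reached into those of CIA_B. miR-181a-1-3p was 25.8% and 33.5% of the reads of both miR-181a 3p arms in CIA_B. At 1 h it was 39.2% and 32.1% of them after stimulation and 31.0% and 29.6% after placebo, and at 34 days 30.6% and 26.4% after stimulation and 48.1% and 37.8% after placebo. The arm from chromosome 3 had more reads in all 10 libraries, although in the first PLA_A library the interval of the share (43.1 to 53.1%) included an even split. PLA_A was the group with the highest mean share from chromosome 13, yet its second library lay below the first MS_E library. The 3p arms together were 0.750 to 1.30% of all miR-181a reads. For the main arms of miR-181a and miR-181b the loci cannot be told apart, since the mature sequence of each is the same at both loci and its reads were counted at each precursor.

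**Figure D5:**
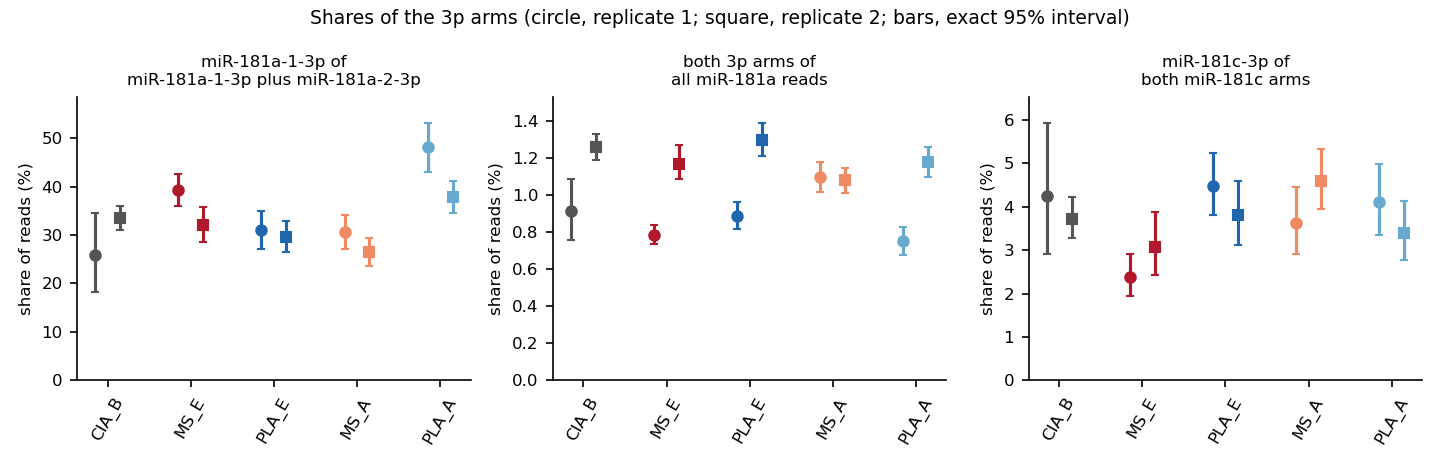
Share of reads (percent, vertical axes from 0) taken by 3p arms, by library and group; circles are replicate 1, squares replicate 2 and bars exact 95% binomial intervals. miR-181a-1-3p stays under 50% of both miR-181a 3p arms in every library, from 25.8 to 48.1%, and miR-181c-3p is lowest in MS_E, at 2.38 and 3.08% of both miR-181c arms.

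The spread over the 10 libraries differed between members. The SD of log2 cpm was 0.338 for miR-181b-5p, 0.367 for miR-181a-5p and 0.409 for miR-181c-5p. It was 0.555 for miR-181a-1-3p, 0.527 for miR-181a-2-3p, 0.512 for miR-181b-2-3p and 0.478 for miR-181c-3p. The highest of the members was 0.623 for miR-181d-5p, which ranged 4.49-fold between its lowest and highest library, against 2.01-fold for miR-181a-5p. The median SD was 0.638 over all 359 miRNAs tested, above that of every member. It was 0.539 over the 182 tested with a mean of at least 100 counts, a set without miR-181b-2-3p.

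Levels of members rose and fell together to different degrees. As a description over the 10 libraries, which share their depth and scaling, Pearson's r of log2 cpm was 0.94 between miR-181c-3p and miR-181d-5p and 0.87 between miR-181c-5p and miR-181d-5p, and 0.80 between miR-181c-3p and miR-181c-5p of the same hairpin. It was 0.88 between miR-181a-5p and miR-181a-1-3p, and 0.68 between miR-181a-5p and miR-181a-2-3p. Between the main arms miR-181a-5p and miR-181b-5p, which are encoded side by side, it was 0.67. Across loci it was 0.55 between miR-181a-5p and miR-181d-5p, 0.74 between miR-181b-5p and miR-181d-5p and 0.82 between miR-181a-5p and miR-181c-5p, the pair that is 1 edit apart.

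The levels of the members were also set beside that of miR-1-3p. miR-181a-5p was at 8423 to 13211 cpm in the 5 libraries with high miR-1-3p and at 13483 to 16917 cpm in the 5 with low miR-1-3p, and it was higher in the latter in 5 of 5 groups. The same held in 5 of 5 groups for miR-181b-5p, miR-181a-1-3p and miR-181a-2-3p, and in 4 of 5 for miR-181c-5p, miR-181c-3p and miR-181d-5p. These counts rest on the TMM scaling. With library size alone they were 3 of 5 for miR-181a-5p, miR-181a-2-3p, miR-181c-5p and miR-181d-5p, 2 of 5 for miR-181b-5p and miR-181a-1-3p, and 1 of 5 for miR-181c-3p. Within the libraries of high miR-1-3p, miR-181d-5p was at 139 cpm in CIA_B and at 39.0 cpm in MS_E, and within those of low miR-1-3p at 175 and 67.2 cpm. With the split as a term in the fit, the same 2 members passed in MS_E against CIA_B and none in any other comparison. Some missed only the 2-fold threshold. For miR-181d-5p the edgeR p was 0.0203 in PLA_A and 0.0426 in MS_A against CIA_B. In MS_E against PLA_E it was 0.0373 for miR-181d-5p and 0.0409 for miR-181c-3p. Their adjusted p-values were between 0.296 and 0.848 (Benjamini-Hochberg). The share of all miRNAs that passed in this fit is not given.

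The miRNAs outside the family that followed miR-181a-5p most closely over the 10 libraries were miR-25-3p (r = 0.87), miR-125b-5p (0.86), miR-190b-5p (0.85), miR-143-3p (0.85) and miR-532-5p (0.82). Those closest to miR-181d-5p were miR-99b-5p (r = 0.88), miR-6328 (0.87), miR-100-5p (0.80), miR-27b-3p (0.79) and miR-30e-3p (0.74). No miRNA was in both sets, and miR-6328 was at 1.72 to 16.5 cpm only.

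The nearest other miRNA cluster to the c/d locus is that of miR-23a, miR-27a and miR-24-2, of which Mir23a lies 28447 bases from Mir181c. Of its 6 arms 5 were tested, and none passed in any comparison. In MS_E against CIA_B their log2 fold changes ran from -0.77 (standard error 0.40) for miR-27a-3p to -0.10 (0.72) for miR-27a-5p, with a median of -0.40. miR-27a-3p was at 2207 and 1424 cpm in CIA_B and at 909 and 1218 cpm in MS_E, the lowest libraries of the 10. Against CIA_B the cluster's medians at 34 days were 0.00 for stimulation and 0.12 for placebo, where miR-181c-5p, miR-181c-3p and miR-181d-5p were all below 0.

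The miR-181 family is counted among the miRNAs of muscle differentiation, and 10 other such miRNAs were tested, miR-206-3p, miR-221-3p and miR-26a-5p among them. None passed in MS_E, PLA_E or MS_A against CIA_B, and 1, miR-29b-3p, was higher in PLA_A. The median of the list was 0.02 in MS_E against CIA_B. Mir3570, a gene that overlaps Mir181a-1 on the opposite strand, gave 0 reads of miR-3570 in all 10 libraries.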

How the data were processed

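Small RNA of 10 tissue libraries, 2 per group, was sequenced by the authors with the TruSeq small RNA kit on an Illumina HiSeq instrument. Per the labels and methods, reads were processed with CASAVA 1.8, mapped with Bowtie to rn4 and the rat miRBase, counted with miRDeep2 and deposited as whole read counts without normalization. Since 35 miRNAs are listed at more than 1 precursor, with reads counted at each, their largest count was kept. Of the series table, 20 columns whose names match no label were not used.

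Libraries of a group were no duplicates of each other (chi-square of their counts over its degrees of freedom, 1562.4 to 7794.0). Counts were filtered at 1 cpm in at least 5 libraries, scaled by TMM factors (0.675 to 1.41) and tested with edgeR 4.0.16 (R 4.3.3, quasi-likelihood, prior count 2, all libraries in 1 fit), adjusting over 359 miRNAs. The thresholds on p and fold are those of the study. The smallest exact two-sided permutation p of 2 against 2 is 0.333, so none was made. Alternatives were limma-voom (limma 3.58.1), DESeq2 1.42.0, other scalings, filters, samples, a replicate block, summed counts and libraries left out. Members, marker lists and tests were chosen with earlier results of these data known. Named miRNAs are the members, members of the marker lists that stand beside a result, and the 5 most correlated with miR-181a-5p and with miR-181d-5p. Summaries were made in Python 3.11.15 (scipy 1.17.1, numpy 2.4.6, pandas 2.3.3) and figures with matplotlib 3.10.9. Mature sequences, hairpins and coordinates are from RefSeq (GRCr8).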

Additional observations from a re-analysis of the deposited data

How the results depend on the processing

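Each log2 fold change below is from edgeR unless another tool is named. The number of members passing in MS_E against CIA_B was 2 in the reported fit and 1 with library size only and with only the libraries compared. With 1 library left out at a time it ranged from 0 (without the second MS_E library) to 2, and was 1 without the second CIA_B library. In PLA_A against CIA_B it was 1, against 0, with DESeq2, DESeq2's size factors and a mean of at least 100 counts, each time miR-181d-5p. In MS_E against PLA_E it was 1, against 0, with library size only, and from 0 to 1 with libraries left out (1 without the first MS_E library).

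Library size only moved the median of all miRNAs by 0.16 in MS_E, 0.35 in PLA_E and 0.29 in PLA_A against CIA_B, -0.26 in MS_E against PLA_E and -0.32 in MS_A against PLA_A (log2), and the changes with that scaling are to be read beside these shifts. miR-181a-5p turned sign in MS_E with a mean of at least 100 counts (0.05), in PLA_E with library size only (0.16), and in PLA_A with limma-voom (0.00), library size only (0.25) and the split by miR-1-3p (0.03), a term chosen after seeing the data. miR-181b-5p did so with library size only in PLA_E (0.08) and PLA_A (0.05). In MS_A against PLA_A, miR-181c-3p turned with limma-voom (0.00), DESeq2 and its size factors (0.01 each), no filter (0.09) and a mean of at least 100 counts (0.05), and miR-181d-5p with library size only (-0.18). With libraries left out, miR-181a-5p ranged from -0.70 to 0.28 in MS_E, -0.67 to 0.32 in PLA_E, -0.46 to 0.14 in MS_A and -0.34 to 0.25 in PLA_A. miR-181b-5p ranged from -0.73 to 0.21 in PLA_E and -0.55 to 0.00 in PLA_A. In MS_A against PLA_A, miR-181c-3p ranged from -0.12 to 0.20 and miR-181d-5p from -0.06 to 0.47. Against CIA_B, miR-181d-5p and miR-181c-3p stayed below 0 under every alternative run. The cause of these changes was not tested.

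Counting reads at every precursor, which counts miR-181a-5p and miR-181b-5p at both loci, gave a median of 24641 cpm for miR-181a-5p and 1958 for miR-181b-5p, 2.17% for the c and d main arms of all main arms, and 4.24% for miR-181d-5p of the b/d pair (8.08% as reported).

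The replicate numbers pair no animals in the labels, and the differences between replicates correlated from -0.54 to 0.59 between groups (-0.42 for CIA_B and MS_E). With the replicate block 2 members passed in MS_E and miR-181d-5p was at -1.58, and the block moved no other count of members. Crossed numbers equal the split by miR-1-3p, with 2 members in MS_E and 0 in every other comparison. With that split, miR-181d-5p missed only the fold threshold in MS_A and PLA_A against CIA_B and in MS_E against PLA_E. The same held for miR-181c-3p in MS_E against PLA_E. With 2 libraries per group, differences of the size of the standard errors, 0.42 to 0.67 on the log2 scale against CIA_B, could not be told from 0. Larger ones could also fail. miR-181d-5p at -1.04 (standard error 0.48) in PLA_A had an edgeR p of 0.0568 and a Benjamini-Hochberg adjusted p of 0.543.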
